A study of Macaca mulatta with 2 samples.

Results

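The genes described here are 10 immediate-early and AP-1 genes, FOS, FOSB, JUN, JUNB, JUND, DUSP1, IER2, ZFP36, CD69 and NR4A1, taken by name from the 35432 genes of the count table. Of these, 9 were matched by name and all 9 had UMIs. IER2 was matched to no named feature, so no value is given for it. They were described in cells sorted as T cells that carry both CD4 and CD8 (double-positive, DP), drawn from the blood of 1 untreated rhesus monkey aged 6 years. The cells were taken fresh, first with releasable beads against CD4 and then with beads against CD8, so each cell had bound antibody before its RNA was captured. The series holds 1 RNA library and 1 antibody tag library (CD4 and CD8) made from these cells, with no control group and no further animal. No threshold on either tag was applied to choose the cells described. There is therefore no test of any difference, and the intervals given are 95% intervals that cover counting error only.

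Immediate-early genes are transcribed within minutes of a signal from proteins that are already present in the cell, without new protein synthesis. FOS, FOSB, JUN, JUNB and JUND encode subunits of the dimeric transcription factor AP-1, in which a FOS protein pairs with a JUN protein. DUSP1 removes phosphate from MAP kinases, ZFP36 (tristetraprolin) binds AU-rich elements and marks their mRNAs for decay, and both thereby limit the response that induced them. CD69 is a surface protein that appears early on activated lymphocytes, and NR4A1 (NUR77) is an orphan nuclear receptor whose induction follows antigen receptor signals. Many promoters of this class carry a cAMP response element (CRE), bound by CREB and ATF proteins, or a CArG box, bound by serum response factor.

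All 10 genes were found in the RefSeq annotation of Mmul_10. FOS lay at chr7:137394931-137397381 on the plus strand with 4 exons, and DUSP1 at chr6:170168726-170171764 on the minus strand with 4 exons. FOSB (chr19:45527685-45534869), JUNB (chr19:12369848-12371689), JUND (chr19:17816964-17818877), IER2 (chr19:12746933-12748795) and ZFP36 (chr19:38657964-38660852) shared chromosome 19. JUN (chr1:165651412-165653728), JUNB, JUND and IER2 had 1 exon each. CD69 (chr11:9924895-9931658) and NR4A1 (chr11:51642226-51666836) were on chromosome 11.

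The 500 bases before each annotated gene start were searched on both strands for fixed letters. The full CRE, TGACGTCA, was present before 4 of the 10 genes, FOSB, JUND, DUSP1 and IER2, and before 1.78% of 20787 promoters of that length. The shorter CRE core, TGACG, which lies within every full CRE, was present before 8 of the 10 and before 29.5% of all promoters. The CArG box was present before 2 of the 10, FOS and FOSB, and before 2.16% of all promoters. TATAAA was present before 7 of the 10 and before 20.2% of all. The AP-1 motif TGANTCA was found in this window before 0 of the 10, against 10.5% of all promoters. The stretches around the full CREs and CArG boxes of the measured genes are shown because FOS and FOSB share the CArG box, and FOSB, JUND and DUSP1 the full CRE. They are read 5′ to 3′ on the gene's strand from Mmul_10, with the matched letters in capitals.
FOS CArG box, 469 bases before the start, chr7:137394437-137394496, plus strand: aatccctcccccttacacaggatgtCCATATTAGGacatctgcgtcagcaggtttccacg
FOSB CArG box, 269 bases before the start, chr19:45527391-45527450, plus strand: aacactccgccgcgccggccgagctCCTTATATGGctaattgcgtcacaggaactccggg
FOSB CRE, 320 bases before the start, chr19:45527340-45527397, plus strand: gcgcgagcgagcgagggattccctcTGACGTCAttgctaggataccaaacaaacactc
JUND CRE, 171 bases before the start, chr19:17819016-17819073, minus strand: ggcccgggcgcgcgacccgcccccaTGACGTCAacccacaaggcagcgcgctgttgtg
DUSP1 CRE, 130 bases before the start, chr6:170171862-170171919, minus strand: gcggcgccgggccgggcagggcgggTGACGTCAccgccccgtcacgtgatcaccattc

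After filtering, 7601 of 7923 barcodes were kept, and 7311 of them (96.2%) had at least 1 UMI of CD3E, a signalling chain of the T cell receptor. These CD3E+ cells had a median of 3655 UMIs, from 509 to 23511, and a median mitochondrial percent of 3.97. CD3D was present in 92.9% of them and CD3G in 77.8%. Markers of monocytes and platelets were at or near 0, with FCN1 and VCAN at 0 UMIs and CD14 in 0.821% of cells. Of the red blood cell genes, HBA was present in 12.0% and HBB in 0.150% of cells, and HBA1 had 0 UMIs. The NK cell gene KLRF1 was present in 20.5%, while NCAM1 had 5 UMIs. Of the B cell genes, CD79A, CD79B and MS4A1 had 830, 599 and 610 UMIs in CD3E+ cells. At least 3 UMIs summed over the B cell genes were found in 94 CD3E+ cells (1.29%), and in 86 further kept cells without a UMI of CD3E, CD3D or CD3G. The cells had not been freed of doublets, and results found to rest on these 94 cells are given with and without them. Below, cells with B gene UMIs are those with at least 3, and cells with fewer were not left out.

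Levels are UMIs per 1000000 non-mitochondrial UMIs (CPM), and in this 5′ assay they are not divided by gene length. FOS and ZFP36 were the most abundant members in CD3E+ cells. FOS stood at 1940 CPM (95% interval 1924 to 1957) and had a UMI in 91.7% of cells. ZFP36 stood at 1829 CPM (1813 to 1845) and had a UMI in 94.3% of cells. DUSP1 stood at 1078 CPM and was detected in 91.1%. The 3 genes were thus found in nearly every cell, at a median of 5, 5 and 3 UMIs per cell.

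A middle group was detected in most but not all cells. JUN stood at 771 CPM and was detected in 70.2% of cells, JUNB at 603 CPM in 67.7%, and CD69 at 584 CPM in 75.2%. JUNB and CD69 were close, with intervals of 594 to 612 and 575 to 592 CPM that did not overlap. FOSB was lower, at 118 CPM and in 28.0% of cells, and JUND lower again, at 37.6 CPM and in 12.7%. NR4A1 was the rarest, at 16.2 CPM and in 2.24%.

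The members differed in how their UMIs were spread over the cells. The 1% of cells with most UMIs of a gene held 5.44% of the UMIs of DUSP1, 6.80% of FOS and 10.2% of JUN. They held 20.4% of the UMIs of FOSB and 80.5% of those of NR4A1. In cells thinned to 2000 UMIs, the variance over the mean was 3.04 for FOS and 3.02 for JUN. Of 60 genes with a mean like that of FOS, 3 had a larger value than FOS, and of 97 genes with a mean like that of JUN, 2 did. FOS and JUN therefore varied between cells more than most genes of their level, and so did the other members. A larger value was found in 5 of 119 genes for JUNB, 41 of 1058 for FOSB and 13 of 2034 for NR4A1. It was found in 6 of 59 for ZFP36, 8 of 67 for DUSP1, 12 of 126 for CD69 and 412 of 2063 for JUND. Each set of genes held the member itself and could hold other members.

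NR4A1 was concentrated in the CD3E+ cells that also held B cell genes. Of the 462 NR4A1 UMIs, 355 (76.8%) were in the 94 cells with at least 3 B gene UMIs. These cells had 380 CPM of NR4A1 (342 to 422), against 3.88 CPM (3.18 to 4.69) in the other 7217 CD3E+ cells. Among the 38 cells with 3 or more NR4A1 UMIs, 37 had at least 3 B gene UMIs, compared with 33 of the 7147 cells with none. Their median depth was 11018.5 UMIs, against 3640 in cells without NR4A1.

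Other members were also higher in the 94 cells, by less. FOSB stood at 697 CPM there and 98.0 CPM in the other CD3E+ cells. CD69 stood at 2015 against 535 CPM, ZFP36 at 4122 against 1751, and FOS at 3493 against 1888. In the 86 cells with B cell genes and no CD3 gene, NR4A1 stood at 796 CPM, FOS at 5223 and ZFP36 at 5896. Levels in the 94 cells lay between those of the other CD3E+ cells and those of the 86 cells for 8 of the 9 members. JUND was the exception, at 105, 35.3 and 74.5 CPM. Whether the 94 barcodes each held more than 1 cell was not tested.

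**Figure D1:**
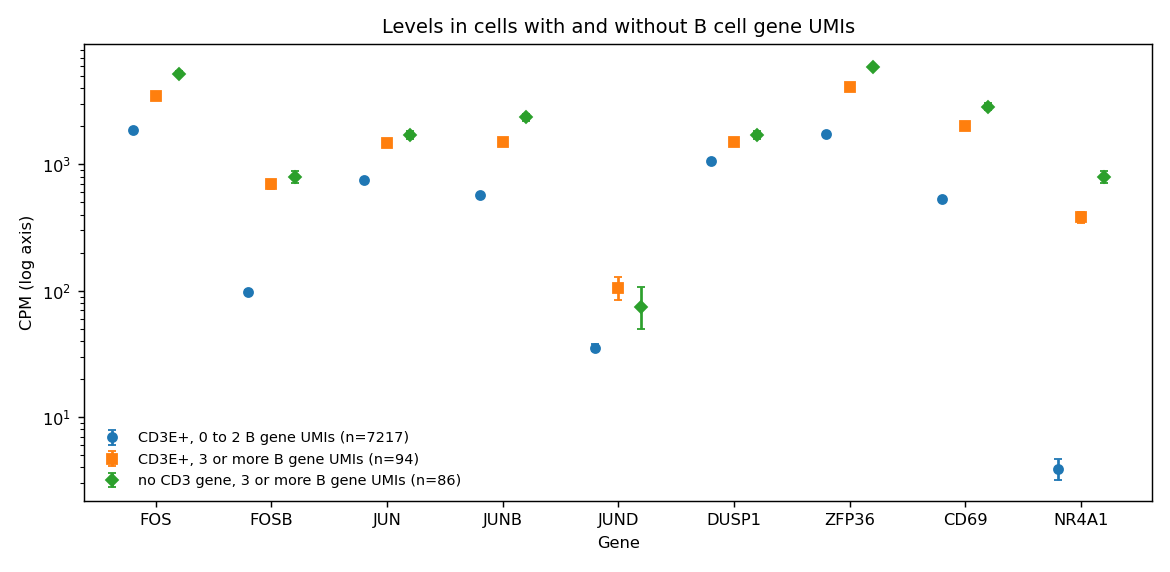
Level of each member in CPM (log axis) in CD3E+ cells with 0 to 2 B gene UMIs, in CD3E+ cells with 3 or more, and in cells with 3 or more and no CD3 gene; bars are exact 95% Poisson intervals, smaller than the symbol for abundant genes. NR4A1 differed most, at 3.88, 380 and 796 CPM.

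Cells were next divided by UMIs of 7 genes used as markers of T cell states, with a UMI as the threshold for CCR7, EOMES, TRAV10, CCR6, CCR9 and CXCL13 and 3 UMIs for GZMB. Each positive group was set against the CD3E+ cells with 0 UMIs of that gene. A member was counted as higher or lower at a ratio of at least 1.5-fold with at least 20 UMIs awaited in the smaller group from the pooled rate. The same rule applied to all genes gives the background share in each direction. Free RNA can give a marker UMI to a cell that does not express the gene. In the 86 cells with B cell genes and no CD3 gene (median 4121.5 UMIs, against 3655 in CD3E+ cells), CCR7 was found in 18.6%, CCR6 in 10.5%, CCR9 in 3.49% and GZMB at 3 UMIs in 2.33%. CCR7 and CCR6 are also expressed by B cells. In the same 86 cells EOMES, TRAV10 and CXCL13 were found in 0, which allows a share of up to 3.49%. That limit is above the share of TRAV10+ and CXCL13+ cells among CD3E+ cells, 3.38% and 0.998%.

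**Figure D2:**
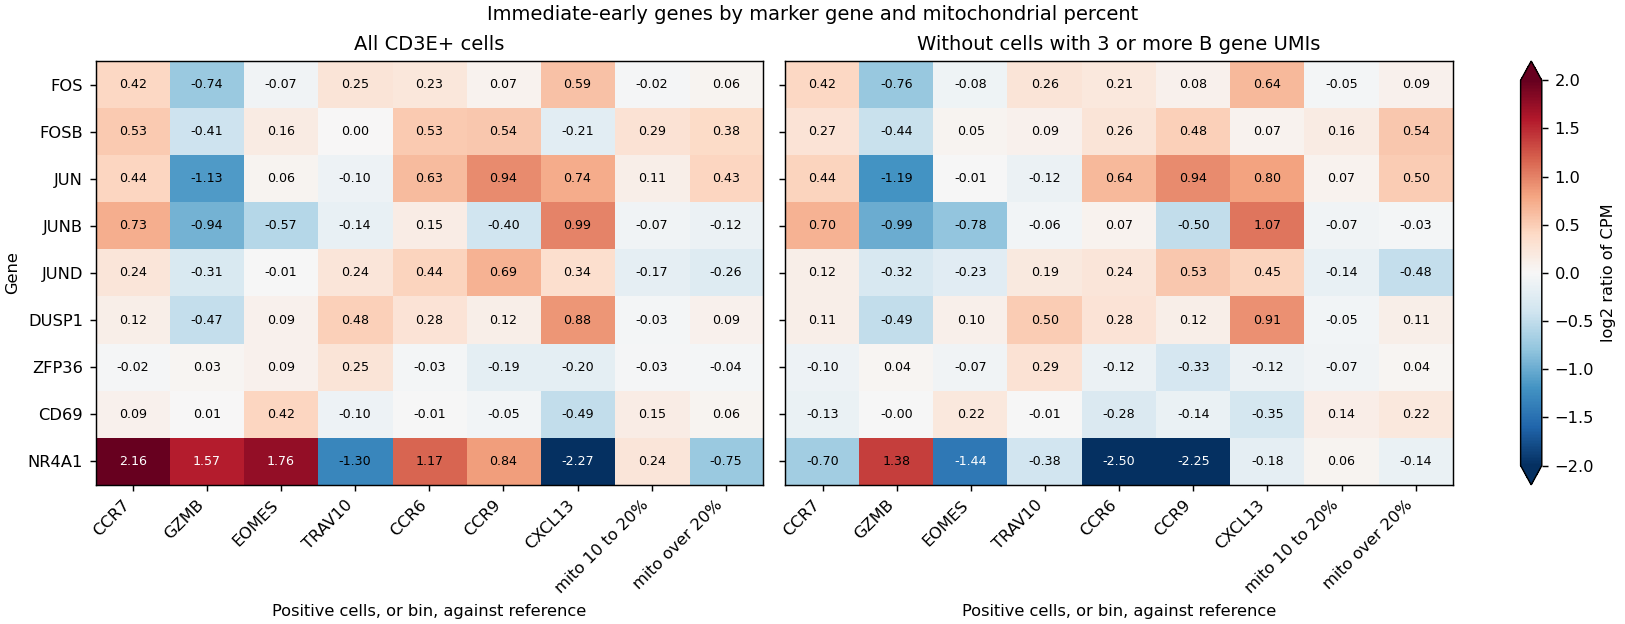
log2 ratio of CPM of each member (rows) between positive cells and cells with 0 UMIs of the marker, or between bins of mitochondrial percent, in all CD3E+ cells (left) and without the cells with 3 or more B gene UMIs (right). JUN and JUNB were lower in GZMB+ cells, at -1.13 and -0.94, and the NR4A1 row changes sign between the panels for CCR7, EOMES, CCR6 and CCR9.

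FOS, JUN and JUNB, 3 of the 5 AP-1 subunits among the members, were lower in cells with granzyme B, the serine protease of cytotoxic granules. The 2770 GZMB+ cells had 1368 CPM of FOS against 2286 CPM in 4038 cells without GZMB, a log2 ratio of -0.74 (-0.77 to -0.71). JUN stood at 440 against 964 CPM, a log2 ratio of -1.13 (-1.18 to -1.08). JUNB stood at 383 against 736 CPM, a log2 ratio of -0.94. These 3 of 9 members were at least 1.5-fold lower, against 9.38% of all 9838 genes tested. DUSP1, FOSB and JUND were short of 1.5-fold, at log2 ratios of -0.47, -0.41 and -0.31.

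ZFP36 and CD69 did not share this difference. ZFP36 stood at 1834 CPM in GZMB+ cells and 1792 CPM in the reference, and CD69 at 576 and 573 CPM. NR4A1 was the 1 of 9 members at least 1.5-fold higher, against 19.8% of all genes, at 26.9 against 9.05 CPM. Without the cells with B gene UMIs it stood at 6.49 against 2.49 CPM, from 64 and 40 UMIs, a log2 ratio of 1.38 (0.79 to 1.99). NR4A1 remained higher in GZMB+ cells in that comparison. Over all kept cells, CD3E+ or not, its log2 ratio was -0.37, and in cells positive for GZMB alone among the markers it was -0.10. Both of these settings include the cells with B gene UMIs, and neither was taken without them. The median gene had a log2 ratio of 0.21 here, so that relative to it DUSP1 and FOSB also passed 1.5-fold and 5 members were lower. The share of all genes lower was not counted relative to the median gene, so the 9.38% does not apply to this count.

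The levels of FOS, JUN and JUNB fell with the number of GZMB UMIs. FOS went from 2286 CPM in cells without GZMB to 1988 with 1 to 2 UMIs, 1584 with 3 to 9 and 1241 with 10 or more. JUN went from 964 to 868, 514 and 396 CPM over the same steps. JUNB went from 736 to 617, 447 and 345 CPM. DUSP1 was level at 1198 and 1189 CPM and then stood at 1000.3 and 781 CPM. ZFP36 and CD69 were highest with 1 to 2 GZMB UMIs. ZFP36 stood at 1792, 2150, 1953 and 1764 CPM over these steps, and CD69 at 573, 723, 622 and 550 CPM. In cells thinned to the same depth, FOS was found in 77.9% of GZMB+ and 90.7% of GZMB 0 cells, JUN in 43.6% and 65.3%, and JUNB in 41.0% and 60.1%. ZFP36 went the other way, at 90.6% and 85.7%.

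**Figure D3:**
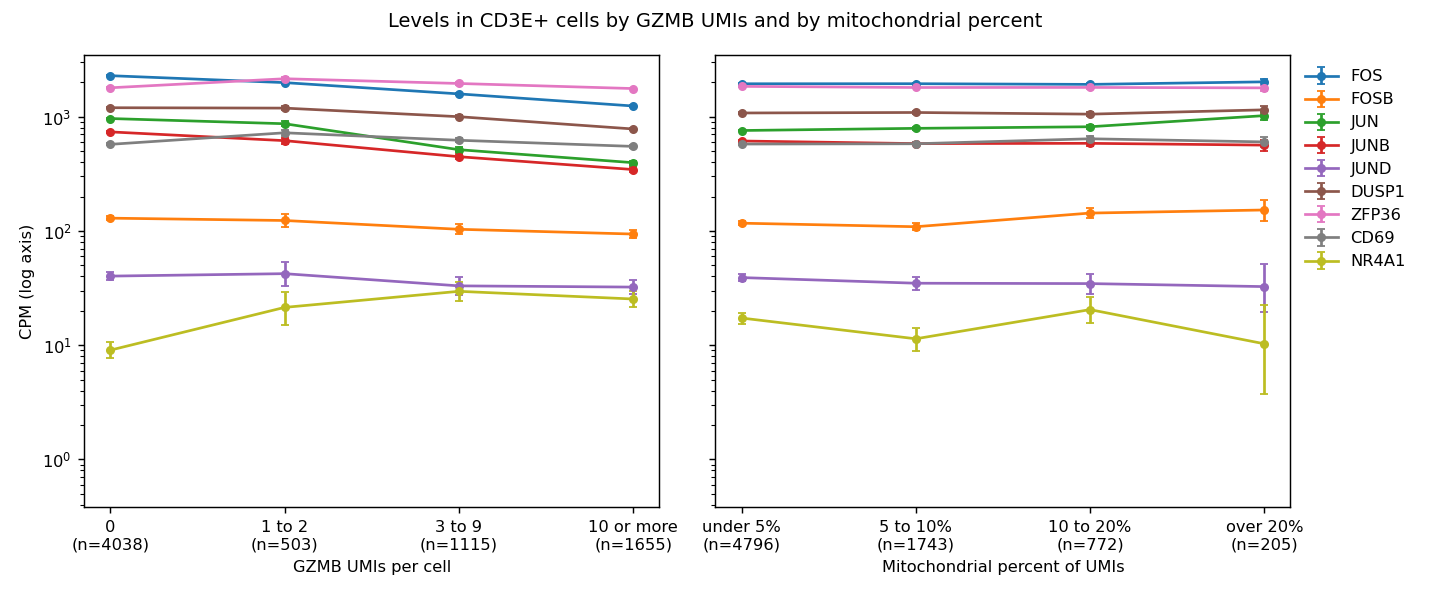
Level of each member in CPM (log axis) by GZMB UMIs per cell (left) and by mitochondrial percent (right) in CD3E+ cells; n is the number of cells and bars are exact 95% Poisson intervals. FOS, JUN and JUNB descend from left to right with GZMB UMIs, from 2286 to 1241, 964 to 396 and 736 to 345 CPM. The lines by mitochondrial percent are nearly flat for abundant members except JUN, at 757 CPM under 5% and 1022 CPM over 20%.

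CCR7 is the chemokine receptor that brings naive and central memory T cells to lymph nodes. In 2163 CCR7+ cells, 2 of 9 members were at least 1.5-fold higher, against 5.94% of all genes, and 0 were lower, against 13.4%. JUNB stood at 811 CPM against 489 CPM in 5148 cells without CCR7, a log2 ratio of 0.73 (0.69 to 0.77). NR4A1 stood at 32.5 against 7.28 CPM. Without the cells with B gene UMIs, NR4A1 stood at 2.75 against 4.47 CPM, and its log2 ratio changed from 2.16 to -0.70 (-1.39 to -0.04). The share of cells with at least 3 B gene UMIs was 2.64% among CCR7+ cells and 0.719% in the reference.

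FOS, FOSB and JUN were also above the reference in CCR7+ cells, short of 1.5-fold, at log2 ratios of 0.42, 0.53 and 0.44. Without the cells with B gene UMIs, FOSB was at 0.27 (0.16 to 0.39), while FOS and JUN stayed at 0.42 and 0.44. GZMB+ cells made up 7.77% of CCR7+ cells and 50.5% of the reference. Within cells without GZMB, the log2 ratio was 0.35 for JUNB, 0.20 for FOSB, 0.11 for FOS and -0.02 for JUN. The JUNB ratio therefore fell below 1.5-fold within GZMB 0 cells, and JUN showed no difference there beyond its interval (-0.06 to 0.03).

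CCR9 directs T cells to the small intestine, and it was the marker by which JUN and JUNB differed most. JUN stood at 1372 CPM in 479 CCR9+ cells against 713 CPM in 6832 cells without CCR9, a log2 ratio of 0.94, from 3447 and 18542 UMIs. JUNB stood at 467 against 616 CPM, a log2 ratio of -0.40 (-0.49 to -0.31). Thus there were 2.94 JUN UMIs per JUNB UMI in CCR9+ cells (2.75 to 3.15) and 1.16 in the reference (1.13 to 1.18). With 3 or more CCR9 UMIs, in 90 cells, JUN stood at 1522 and JUNB at 276 CPM.

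JUN, JUND and NR4A1 were the 3 of 9 members at least 1.5-fold higher in CCR9+ cells, against 2.82% of all genes, and 0 were lower, against 8.65%. JUND stood at 57.7 against 35.7 CPM, a log2 ratio of 0.69 (0.43 to 0.95), from 145 UMIs. Without the cells with B gene UMIs the JUND ratio was 0.53 and no longer passed 1.5-fold, while JUN stayed at 0.94. NR4A1 then had 2 UMIs in CCR9+ cells, a log2 ratio of -2.25 (-5.31 to -0.36) in place of 0.84. Within GZMB 0 cells, JUN was at 0.68 (0.62 to 0.74) and JUNB at -0.82 (-0.92 to -0.73), so JUNB passed 1.5-fold there in the lower direction.

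CCR6 marks T cells of the interleukin 17 producing type, among others. In 557 CCR6+ cells, 2 of 9 members were at least 1.5-fold higher, against 3.32% of all genes, and 0 were lower, against 4.91%. JUN stood at 1131 CPM against 729 CPM in 6754 cells without CCR6, a log2 ratio of 0.63 (0.58 to 0.69). CCR6+ cells were deeper, with a median of 4937 against 3582 UMIs, and against a reference weighted to their depth the JUN ratio was 0.49. Within GZMB 0 cells it was 0.27 (0.21 to 0.33). NR4A1 stood at 32.2 against 14.3 CPM, and at 0.744 against 4.22 CPM, with 2 UMIs in CCR6+ cells, without the cells with B gene UMIs. CCR6+ cells had 1.71 JUN UMIs per JUNB UMI (1.62 to 1.81), against 1.22 in their reference.

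EOMES is a T-box transcription factor of cytotoxic and memory T cells. In 356 EOMES+ cells, NR4A1 was the 1 of 9 members at least 1.5-fold higher, against 2.39% of all genes, at 48.8 against 14.4 CPM, and 0 were lower, against 3.19%. Without the cells with B gene UMIs, NR4A1 had 2 UMIs in EOMES+ cells and a log2 ratio of -1.44 (-4.50 to 0.45). JUNB was just short of 1.5-fold lower, at 412 against 613 CPM, a log2 ratio of -0.57 (-0.69 to -0.46). It passed 1.5-fold without the cells with B gene UMIs, at -0.78, and within GZMB 0 cells, at -0.91 (-1.08 to -0.75).

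JUNB was lower with more EOMES UMIs, at 443 CPM in 253 cells with 1 UMI, 398 in 72 cells with 2 and 221 in 31 cells with 3 or more. JUN stood at 802 against 769 CPM over all EOMES+ cells, and at 827, 814 and 593 CPM with 1, 2 and 3 or more EOMES UMIs. The last value rests on 86 UMIs in 31 cells, and its interval (475 to 733) leaves out the spread between cells. Over all EOMES+ cells there were 1.94 JUN UMIs per JUNB UMI (1.76 to 2.15) against 1.25. CD69 was above the reference, at 769 against 573 CPM, a log2 ratio of 0.42 that was 0.22 without the cells with B gene UMIs.

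**Figure D4:**
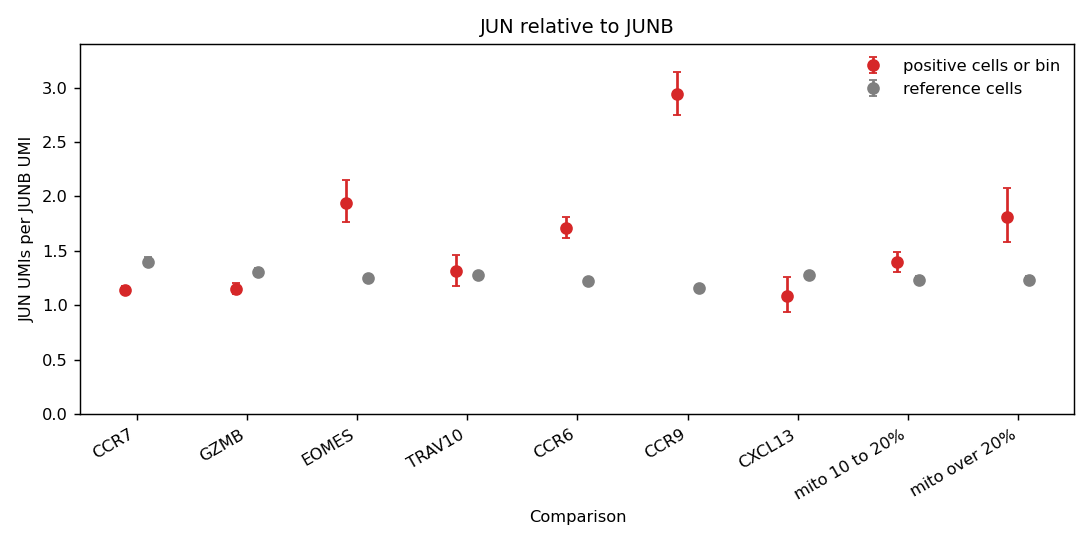
JUN UMIs per JUNB UMI in the positive cells or bin (red) and in the reference cells (grey) of each comparison; bars are exact 95% intervals from the split of both counts. CCR9+ cells stand highest, at 2.94, followed by EOMES+ cells at 1.94, while CCR7+, GZMB+ and CXCL13+ cells lie below their reference cells.

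CXCL13, a chemokine of follicular helper T cells, marked 73 cells. In them FOS, JUN and JUNB, 3 of the 5 AP-1 subunits among the members, and DUSP1 were higher. FOSB stood at 102 against 118 CPM, and JUND, with 14 UMIs, was not tested. Of 7 members tested, 4 were at least 1.5-fold higher, against 7.24% of all genes, and 0 were lower, against 8.0%. JUNB stood at 1181 CPM (348 UMIs) against 597 CPM, a log2 ratio of 0.99 (0.83 to 1.14). DUSP1 stood at 1962 against 1069 CPM, a log2 ratio of 0.88 (0.75 to 0.99). JUN and FOS had log2 ratios of 0.74 (0.59 to 0.89) and 0.59 (0.49 to 0.69).

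CD69 was below the reference in CXCL13+ cells, at 418 against 585 CPM, a log2 ratio of -0.49 (-0.76 to -0.23). ZFP36 stood at 1595 against 1831 CPM, and without the cells with B gene UMIs its log2 ratio was -0.12 (-0.26 to 0.01). Neither passed 1.5-fold. Within GZMB 0 cells, JUNB and DUSP1 remained at least 1.5-fold higher, at 0.78 and 0.75, and FOS and JUN did not, at 0.35 and 0.42. CXCL13+ cells also had CCR7 in 57.5% of cells, against 29.3% of the reference. Only 16 of the 73 cells were positive for no other marker, and in them JUNB had a log2 ratio of 1.67, DUSP1 of 1.08 and JUN of -0.13.

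TRAV10 is the alpha chain segment of the invariant receptor of NKT cells. In 247 TRAV10+ cells, 0 of 8 members tested were at least 1.5-fold higher, against 1.51% of all genes, or lower, against 3.78%. Among these 8, DUSP1 was the furthest from the reference, at 1482 against 1063 CPM, a log2 ratio of 0.48 (0.40 to 0.55), and it was 0.47 within GZMB 0 cells. NR4A1, with 7 UMIs in TRAV10+ cells, was not tested, at 6.71 against 16.6 CPM. FOS and ZFP36 had log2 ratios of 0.25 each, and JUN, JUNB and CD69 of -0.10, -0.14 and -0.10.

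The members differed little by mitochondrial percent up to 20%. In 772 CD3E+ cells with 10 to 20% mitochondrial UMIs, 0 of 9 members were at least 1.5-fold higher than in 4796 cells under 5%, against 3.93% of all genes, and 0 were lower, against 1.02%. FOS stood at 1918 against 1942 CPM, DUSP1 at 1053 against 1078 and ZFP36 at 1804 against 1843. FOSB had the largest ratio, at 143 against 117 CPM, a log2 ratio of 0.29 (0.14 to 0.45) that was 0.16 (-0.02 to 0.34) without the cells with B gene UMIs. The summed members stood at 7016 CPM against 6983 CPM.

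Above 20% mitochondrial UMIs, outside the filter of the study, 205 CD3E+ barcodes were found. There, 0 of 8 members tested were at least 1.5-fold higher, against 14.9% of all genes, and 0 were lower, against 2.5%. JUN stood at 1022 against 757 CPM, a log2 ratio of 0.43 (0.31 to 0.55), and FOSB at 153 against 117 CPM, a log2 ratio of 0.38 (0.06 to 0.69). GZMB+ cells made up 24.9% of these barcodes (19.1 to 31.4) and 38.1% of those under 5%. Within GZMB 0 cells, the JUN ratio was 0.32 (0.18 to 0.46) and the FOSB ratio 0.59 (0.22 to 0.94), so FOSB passed 1.5-fold there.

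Mitochondrial percent and GZMB were also set side by side. Within GZMB+ cells, FOS stood at 1359, 1386 and 1391 CPM and JUNB at 382, 374 and 412 CPM in the bins under 5%, 5 to 10% and 10 to 20%. In GZMB 0 cells, FOS stood at 2285, 2312 and 2231 CPM and JUNB at 753, 714 and 679 CPM. The gap between GZMB+ and GZMB 0 cells was thus present in every bin, and it exceeded the differences between bins for both genes.

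Members were detected together more often than the product of their shares. This was taken in 6935 CD3E+ cells thinned to 2000 UMIs, with 376 shallower cells left out. FOS and DUSP1 were found together in 71.0% of cells, where the product of their shares is 68.8%, an odds ratio of 2.69. DUSP1 was found in 83.0% of cells with FOS and in 64.4% of cells without it. FOS and FOSB had an odds ratio of 2.16, FOS and JUNB of 1.97, FOS and JUN of 1.93, and JUN and JUNB of 1.46.

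All 36 odds ratios were above 1 in this draw, with a median of 1.38, and 34 were in another random draw. Pairs of genes outside the list were not examined. Whether such odds ratios are particular to the members was therefore not tested. With the cells with B gene UMIs included, CD69 was the least tied to the AP-1 members. Its odds ratios were 1.02 with JUNB, 1.04 with FOSB, 1.05 with JUND, 1.12 with JUN and 1.33 with FOS. Pairs with NR4A1 depended on the cells with B gene UMIs, except FOS with NR4A1, at 4.30 with these cells and 4.01 without. Without these cells, the 8 pairs with NR4A1 had a median odds ratio of 0.939 in place of 1.71, and 3 were above 1. NR4A1 then had odds ratios of 0.82, 0.58 and 0.89 with JUN, JUNB and JUND, and 4.01 and 1.65 with FOS and FOSB. CD69 then had 1.10, 0.99 and 0.99 with JUN, JUNB and JUND, and 1.31 and 0.97 with FOS and FOSB. The other 28 pairs had a median of 1.31 in place of 1.36, and 25 were above 1. The 91 thinned cells with NR4A1 give its odds ratios little precision, and they differed by up to 2.30-fold between draws.

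**Figure D5:**
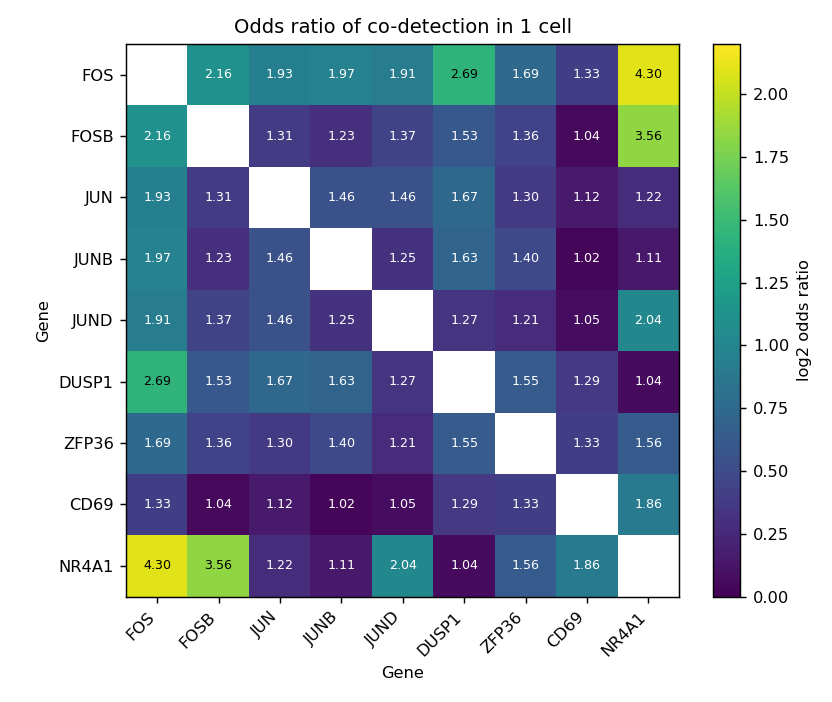
Odds ratio of detecting 2 members in the same cell for the 36 pairs, in 6935 CD3E+ cells thinned to 2000 UMIs; colour is the log2 odds ratio. FOS with DUSP1 (2.69) and FOS with FOSB (2.16) lead the pairs without NR4A1, and CD69 with JUNB (1.02) is lowest.

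The median odds ratio was also above 1 within groups of cells, while single pairs varied. The median odds ratio was 1.36 within GZMB+ cells, with 33 of 36 above 1, and 1.48 within GZMB 0 cells, with 34 of 36. It ran from 1.35 to 1.43 over the bins of under 5%, 5 to 10% and 10 to 20% mitochondrial percent, with 34, 31 and 31 pairs above 1. FOS with FOSB had odds ratios of 2.27, 2.93 and 1.01 over these bins, and FOSB with JUNB of 0.936 in GZMB+ and 1.35 in GZMB 0 cells. Across cells, the counts were only weakly related. Spearman's rho was 0.31 for FOS and DUSP1, 0.25 for FOS and JUNB, and at most 0.22 for the other pairs, over 6935 cells of 1 library, given as a description.

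A thinned cell held a UMI of 4.43 ± 1.36 (SD over 6935 cells) of the 9 members. Cells with 7 or more members made up 4.54%, where the product of the shares gives 2.65%, and cells with 2 or fewer made up 8.35%, where it gives 4.59%. Cells with many and cells with few members were thus both more frequent than the product of the shares. These shares were not counted without the cells with B gene UMIs. GZMB+ cells held 4.06 members and GZMB 0 cells 4.67. CCR7+ cells held 4.70 against 4.32, and CXCL13+ cells 5.06 against 4.43. The bins of mitochondrial percent held 4.46, 4.42 and 4.28 members from lowest to highest.

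Some genes outside the list followed the summed members across thinned cells, among 3827 genes present in at least 5% of cells. The 8 with the highest Spearman's rho were LTB (0.27), a TNF family ligand, EEF1A1 (0.24), a translation elongation factor, DUSP2 (0.22), another MAP kinase phosphatase, GPR183 (0.21), an oxysterol receptor, IL7R (0.20), the interleukin 7 receptor, and the ribosomal protein genes RPS3A, RPS13 and RPLP1 (0.19 each). The lowest were GZMB (-0.30), NKG7 (-0.27) and CST7 (-0.24), genes of cytotoxic cells. Within GZMB 0 cells, 2 of the 8, DUSP2 (0.18) and GPR183 (0.14), remained among the highest 8.

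The other genes of the response were taken from fixed lists, with the same rule. Of the AP-1 partners, FOSL2, BATF and MAF were higher in GZMB+ cells and lower in CCR7+ cells, at log2 ratios of 1.35, 0.80 and 0.84 in GZMB+ cells and -1.41, -0.77 and -0.75 in CCR7+ cells. They were 3 of 5 partners tested in GZMB+ cells, against 19.8% of all genes higher, and 3 of 5 in CCR7+ cells, against 13.4% lower. These comparisons are not separate, since GZMB+ cells made up 50.5% of the CCR7 reference and 7.77% of CCR7+ cells. Marker ratios of the listed genes were not taken within GZMB 0 cells. MAFF was lower in GZMB+ cells, at -1.22. FOSL2 encodes a FOS family protein, BATF a partner that lacks a transactivation domain, and MAF a related leucine zipper factor. FOSL2 stood at 50.8 CPM in GZMB+ and 19.9 CPM in GZMB 0 cells, while FOS stood at 1368 and 2286 CPM.

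Of 13 other immediate-early transcription genes tested, 4 were higher and 2 lower in GZMB+ cells, against 19.8% and 9.38% of all genes. In CCR7+ cells 4 were higher and 1 lower, against 5.94% and 13.4%. Of those higher, EGR2 and NR4A3 in GZMB+ cells and EGR1, EGR2, NR4A3 and KLF4 in CCR7+ cells no longer passed the rule as higher without the cells with B gene UMIs. EGR2 in GZMB+ cells then still had a log2 ratio of 0.84, from 22 UMIs, and KLF4 in CCR7+ cells one of 0.58, from 35 UMIs. BHLHE40, a repressor induced on activation, was higher in GZMB+ cells (268 against 84.2 CPM) and lower in CCR7+ cells (64.3 against 206 CPM). MYC was lower in GZMB+ cells, at 22.0 against 60.3 CPM, and higher in CCR6+ and CCR9+ cells, at log2 ratios of 1.14 and 1.01. EGR1, a zinc finger factor, was higher in CCR7+ cells at 1.21, and without the cells with B gene UMIs its log2 ratio was -0.93 (-1.41 to -0.47).

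Among 14 feedback genes tested in GZMB+ cells, 2 were higher and 3 lower, against 19.8% and 9.38% of all genes. DUSP2 was lower, at 220 against 351 CPM, a log2 ratio of -0.68 that was -1.66 without the cells with B gene UMIs. Also lower was SOCS3, a cytokine signal inhibitor, at 12.4 against 49.5 CPM, and DUSP4 at 6.39 against 12.8 CPM. GADD45B was higher, at 151 against 75.5 CPM, and RGS1 at 221 against 130.2 CPM. In CCR9+ cells 0 of 14 were higher and 4 lower (DUSP5, DUSP10, GADD45B and RGS1), against 2.82% and 8.65% of all genes. Of 9 tested in CXCL13+ cells, 1 was higher and 3 were lower (DUSP2, GADD45B and TNFAIP3), against 7.24% and 8.0% of all genes. DUSP2 changed from a log2 ratio of -0.59 to 0.23 (-0.16 to 0.60) without the cells with B gene UMIs. PPP1R15A was higher, at 224 against 132 CPM, and TNFAIP3, an inhibitor of NF-kappaB signals, was lower, at 136 against 357 CPM.

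Of the upstream genes, 3 of 10 tested were higher in GZMB+ cells, against 19.8% of all genes. In CCR7+ cells 2 of 10 were lower, against 13.4% of all genes. MAP3K8, a kinase above ERK, was higher in GZMB+ cells, at 44.1 against 16.6 CPM, and in EOMES+ and TRAV10+ cells, at log2 ratios of 0.86 and 1.43, and was lower in CCR7+, CCR6+ and CCR9+ cells, at -1.58, -0.86 and -1.93. Of 9 heat shock and stress genes tested in each, 1 was higher in GZMB+ cells (UBB) and 0 in CCR7+ cells. The shares of all genes were 19.8% and 5.94%. At over 20% mitochondrial UMIs 2 of 9 were higher, against 14.9% of all genes. DNAJA1 stood at 106 against 51.0 CPM and HSPH1 at 90.8 against 48.6 CPM, while FOS stood at 2019 against 1942 CPM. Also there, 1 of 8 other immediate-early transcription genes tested was higher, NR4A2 at a log2 ratio of 0.60. Of 10 feedback genes tested, ZFP36L2 was higher at 1.17 and DUSP2 lower at -0.73, or 0.09 without the cells with B gene UMIs. Of 2 upstream genes tested, CREM was lower at -0.91, and 2.5% of all genes were lower.

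At 10 to 20% mitochondrial UMIs, EGR1, ZFP36L2 and ELK4 were higher, at log2 ratios of 1.75, 0.70 and 1.52. They were 1 of 9 other immediate-early, 1 of 14 feedback and 1 of 7 upstream genes tested, against 3.93% of all genes. Of 3 AP-1 partners and 9 heat shock and stress genes tested, 0 were higher. Of the EGR1 UMIs in that bin, 42.1% were in 1 cell, and without the cells with B gene UMIs its log2 ratio was 1.01 from 38 UMIs. ELK4 encodes a partner of serum response factor, and it stood at 38.1 against 13.3 CPM. A link between ELK4 and the members was not tested.

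The antibody tags are a readout of surface protein that did not enter the choice of genes. Cells with a FOS UMI after thinning had a median of 404 CD4 tag UMIs, against 329 in cells without. Cells with JUN had 413 against 363, and cells with DUSP1 401 against 353. For the CD8 tag, cells with ZFP36 had a median of 358 against 297.5, and cells with JUND 421 against 345.5. The 91 cells with NR4A1 had 481 against 347 CD8 tag UMIs and 396 against 392 CD4 tag UMIs. Without the cells with B gene UMIs, 60 cells had NR4A1, and the medians were 371.5 against 345 for CD8 and 381.5 against 391 for CD4. For JUND the CD8 tag medians were then 391 against 342. CD69 made little difference to either tag, with 393 against 389 for CD4 and 351.5 against 345 for CD8. Tag counts were not thinned, and GZMB+ cells had a median of 316 CD4 tag UMIs, against 432 in GZMB 0 cells.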

How the data were processed

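The authors deposited a table of raw counts, the UMIs of each gene or antibody tag in each cell barcode. Per the labels it came from Cell Ranger 3.1.0 with STAR 2.5.1b, on Mmul_10, and the sources used here give no annotation release. After the study's filter, 14459 genes (each in at least 3 barcodes) and barcodes holding 200 to 4000 genes were used, with mitochondrial UMIs of no more than 20%. Mitochondrial features were 12 named genes and 2 unnamed ones, which held 82.0% of mitochondrial UMIs. CPM is per 1000000 non-mitochondrial UMIs. Ratios carry exact intervals from the binomial split of both counts, levels exact Poisson intervals, and shares Clopper-Pearson intervals. Thinning drew 2000 UMIs per cell, mitochondrial ones included, without replacement (seed 1). Doublets were not removed. The sum of B cell genes holds 1 further gene that is not reported here. Members, lists and comparisons were chosen with earlier results of these data known. From each list, genes past 1.5-fold or with most UMIs could be named, and the 8 genes most like the summed members. Promoters were read from the RefSeq genome and annotation of Mmul_10. Ratio and thinning steps were tested on simulated data. Python 3.11.15, numpy 2.4.6, scipy 1.17.1, pandas 2.3.3 and matplotlib 3.10.9 were used.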

Additional observations from a re-analysis of the deposited data

Results flagged for a closer look

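NR4A1 stood at 796 CPM in the 86 kept cells that held B cell genes and lacked a UMI of any CD3 gene. These cells entered none of the comparisons between marker groups of CD3E+ cells. The value rests on 299 UMIs, above the 3 that a count of 0 allows, and NR4A1 was found in 47.7% of these cells against 2.24% of CD3E+ cells.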

How the results depend on the processing

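Of 314 alternative values of the counts and summaries, 252 stayed close to the reported value and 62 moved; of 1312 alternative log2 ratios of single members, 120 had another sign than the reported one. Of these, 16 concern a ratio reported as at least 1.5-fold, 15 of them of NR4A1. Counts below are members at least 1.5-fold higher or lower, and the share of all genes was not counted for these alternatives. The cause of each move was not tested unless the alternative itself removes cells. With CPM over all gene UMIs, 1 was lower above 20% mitochondrial UMIs. With means over cells, EOMES had 1 lower, CCR6 1 higher, both mitochondrial comparisons 1 higher, and NR4A1 in CCR9 was -0.068. With a higher marker threshold, EOMES had 0 higher and 1 lower and CCR6 0 higher. Over all kept cells, GZMB had 0 higher, EOMES and TRAV10 1 lower, over 20% mitochondrial 1 higher, and NR4A1 was -0.37 in GZMB and -0.20 in CCR9. With at most 10% mitochondrial UMIs, EOMES had 1 lower. Against cells without any marker, CCR7 and CCR6 had 1 higher, EOMES and CCR9 1 lower, and CXCL13 2 higher. In cells positive for 1 marker only, GZMB, EOMES and CCR6 had 0 higher, TRAV10 and CCR9 1 higher, EOMES and CXCL13 1 lower and CCR9 2 lower; NR4A1 was -0.10 in GZMB, -0.91 in EOMES, -2.27 in CCR6 and -3.60 in CCR9, and JUN was -0.13 in CXCL13. Against a reference weighted by depth, CCR6 had 0 higher. In thinned cells, EOMES had 0 higher and 2 lower, CCR6 and CCR9 1 higher, and NR4A1 in CCR9 was -0.028. With a pseudocount of 10 CPM, CCR9 had 1 higher. With 50 UMIs awaited, EOMES had 0 and CCR6 1 higher. With no minimum, TRAV10, CXCL13 and over 20% mitochondrial had 1 lower. Without the 5% deepest cells, CCR7, CCR6, CCR9 and over 20% mitochondrial had 1 higher, EOMES 0 higher and 1 lower, and NR4A1 was -2.90 in EOMES, -2.10 in CCR6 and -2.48 in CCR9. Co-detection without thinning had a median odds ratio of 2.14, and 2 of the 8 genes most like the members were shared in GZMB 0 cells.

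Further alternatives were chosen after seeing the data, namely those without the cells with B gene UMIs, within GZMB 0 cells, relative to the median gene, and with another random draw, and the tag medians without the cells with B gene UMIs. Without the cells with B gene UMIs, CCR7 had 1 higher and 1 lower, EOMES 0 higher and 1 lower, CCR6 and CCR9 1 higher, and NR4A1 was -0.70 in CCR7, -1.44 in EOMES, -2.50 in CCR6 and -2.25 in CCR9. Within GZMB 0 cells, CCR7, CCR6, CCR9 and over 20% mitochondrial had 1 higher, EOMES 0 higher and 1 lower, CCR9 1 lower and CXCL13 2 higher. Relative to the median gene, CCR7 had 4 higher, GZMB 5 lower and EOMES 1 lower, and the share of all genes was not counted under that rule. Depth limits NR4A1, with 462 UMIs, and the 73 CXCL13+ cells. No paired analysis was possible because the results come from no test and both libraries hold the same cells of 1 animal.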
